A study of Mus musculus with 12 samples.

Results

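RNA of 10 mouse genes that take up, store, release and sense iron was followed in whole aortae: Tfrc, Slc11a2, Fth1, Ftl1, Ncoa4, Slc40a1, Heph, Cp, Aco1 and Ireb2. They were chosen by name, and every transcript of the deposited table that the GENCODE M21 annotation assigns to one of them was summed per gene. All 10 were found, with 18 of the table's 22699 transcripts, among 12287 genes in all. The aortae came from C57BL/6 mice aged 7 weeks, with 6 control libraries and 6 libraries from mice fasted for 24 h; no transgene or drug is named for either group. The comparison asks which aortic RNAs differ after the fast. Nothing in the labels ties a replicate to its own animal, and the p-values then speak only of the spread among the 12 libraries, which may be technical.

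Cells take up iron bound to transferrin through the transferrin receptor, pass it from the endosome to the cytosol through a divalent metal transporter, and keep what is not used inside ferritin, a shell of heavy and light subunits. Ferroportin is the exporter, and multicopper ferroxidases oxidise the released iron so that transferrin can bind it. Iron regulatory proteins, which sense a lack of iron, bind stem-loops called iron-responsive elements: binding near the start of an mRNA blocks its translation, and binding behind the coding sequence of the transferrin receptor mRNA protects it from decay. RNA levels therefore show only a part of this regulation.

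The elements are shown because iron regulatory proteins bind this kind of stem-loop and because the 2 listed isoforms of Tfrc differ in them. The sense strand of 22634 listed transcripts was searched in the GENCODE M21 sequences for a C, 5 bases, the loop CAGTGN and 5 bases that can pair with the first 5 (A with T, G with C or G with T). The pattern was in 301 transcripts, 1.33% of those searched, and in 4 of the 18 transcripts of the iron genes. In the lines that follow each element has 29 bases, 5′ to 3′ on the transcript strand with GRCm38 positions, and capitals mark the loop.
Fth1-201, 5′ untranslated region, chr19:9982732-9982760, plus strand: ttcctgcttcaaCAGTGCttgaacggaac
Ftl1-201, 5′ untranslated region, chr7:45459779-45459807, minus strand: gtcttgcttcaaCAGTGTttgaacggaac
Slc40a1-201, 5′ untranslated region, chr1:45925465-45925493, minus strand: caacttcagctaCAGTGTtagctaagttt
Tfrc-201 element 1, 3′ untranslated region, chr16:32631219-32631247, plus strand: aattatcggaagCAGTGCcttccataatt
Tfrc-201 element 2, 3′ untranslated region, chr16:32631598-32631626, plus strand: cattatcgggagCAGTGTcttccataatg
Tfrc-201 element 3, 3′ untranslated region, chr16:32631663-32631691, plus strand: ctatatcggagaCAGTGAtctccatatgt
Tfrc-201 element 4, 3′ untranslated region, chr16:32631710-32631738, plus strand: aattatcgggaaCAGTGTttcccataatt
The shorter Tfrc-202 (1860 bases against 4890 for Tfrc-201) held no match, and neither did any listed transcript of Slc11a2, Ncoa4, Heph, Cp, Aco1 or Ireb2. An element with an added bulge, which this pattern does not cover, is known from Slc11a2 messages.

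Levels are in FPKM, fragments scaled to transcript length and library size. Each library held 299588 to 327492 FPKM over its listed transcripts; how many reads lie behind a value is unknown. Smooth muscle markers, which define most of the aortic wall, were all 8 listed and summed to 8582 to 10722 FPKM (control) and 8444 to 9669 FPKM (fasted); Lmod1 was higher in fasted aortae (0.32, limma adjusted p = 0.00359) and Cnn1 lower (-0.17, adjusted p = 0.0483). White adipocyte markers (7 of 8 listed, without Lep; 3 higher in fasted, 0 lower) summed to 111 to 151 FPKM (control) and 165 to 307 FPKM (fasted), without overlap. The adipocyte markers that rose were Cidec (1.59 ± 0.632 to 7.56 ± 5.59 FPKM, limma adjusted p = 0.00421) and Plin4 (67.6 ± 5.69 to 119.5 ± 5.64 FPKM, adjusted p = 1.28e-06), both of lipid droplets, and Lpl, lipoprotein lipase (26.1 ± 4.86 to 37.2 ± 6.77 FPKM, adjusted p = 0.0123). Adipoq (0.72, adjusted p = 0.164), Plin1 (0.50, adjusted p = 0.205), Cfd (0.59, adjusted p = 0.34) and Retn (-0.11, adjusted p = 0.788) did not pass. Plin4 alone, at 60.1 to 76.1 FPKM in controls and 112.7 to 128.9 FPKM in fasted aortae, made up a large part of the sum. The part of adipocytes in the results was not tested. A fit with the level of the white adipocyte markers as a covariate was run, and its values stand beside each call it ended or added. That covariate is the mean of the 7 listed markers on log2(FPKM + 1), the 3 called ones included, so it differs with the groups. A call ended or added under it therefore cannot tell adipocyte content from the fast itself. Over all genes 2922 were called with it, against 3821 without. Endothelial markers (8 of 8, 2 higher, 0 lower) summed to 148 to 223 and 207.5 to 278 FPKM. The 2 that rose were Pecam1 (91.0 ± 15.7 to 155 ± 17.2 FPKM, adjusted p = 1.63e-04), the largest part of the sum, and Nos3 (0.54, adjusted p = 0.00255). The others did not pass, with differences from -0.08 (Tek) to 0.47 (Kdr). Brown adipocyte markers (5 of 6, without Elovl3, 1 higher, 0 lower) summed to 10.9 to 35.2 and 21.02 to 68.2 FPKM. Macrophage markers (10 of 10, 0 higher, 2 lower) summed to 211 to 345 and 215 to 365 FPKM. Of the 12 libraries, fasted replicate 3 had the highest Adipoq (14.8 FPKM), Cidec (17.7 FPKM) and Cfd (95.3 FPKM). It also had the lowest Adgre1 (1.82 FPKM), Cd68 (5.48 FPKM), Csf1r (8.52 FPKM), Mrc1 (6.14 FPKM), C1qc (25.8 FPKM) and Cx3cr1 (0.055 FPKM). Its C1qa, C1qb, Lyz2 and Fcgr1 were not the lowest. The part of this make-up in results that changed without that library was not tested. Fibroblast markers (8 of 8; 2 higher, 1 lower) summed to 1703 to 2097 and 1732 to 1929 FPKM. Erythroid markers (5 of 8; 0 called) spanned 476 to 2819 and 375 to 2482 FPKM, mostly globins. The lists of lymphocytes (1 of 6, Ptprc), Schwann cells (5 of 6, without Sox10; 1 higher, 1 lower) and hepatocytes (1 of 6, Hamp) summed to at most 2.93, 9.09 and 2.88 FPKM.

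None of the 10 iron genes passed the test. Differences below are fasted minus control on log2(FPKM + 1), a scale that understates changes of low genes, with standard errors and 95% intervals from limma, whose p-values were adjusted by Benjamini-Hochberg over 12063 genes; a gene was called at an adjusted p under 0.05. Of all genes tested, 31.7% were called (1667 higher, 13.8%, and 2154 lower, 17.9%; 1974 and 1946 after median-of-ratios scaling), against 0 of the 10 members. At an unadjusted p under 0.05 it was 42.3% of all genes and 4 of 10 members (Tfrc, Slc40a1, Cp and Ireb2). The groups overlapped in every member, while they did not overlap in 17.0% of all genes tested. The median difference of the members was 0.08, and -0.02 over all genes; 5 members were higher and 5 lower in the fasted group. The median size of the difference, without its sign, was 0.16 in the members and 0.17 in all genes. Without fasted replicate 3 the count of members called was 3, all higher: Ireb2 (0.20, adjusted p = 0.00979), Cp (0.31, adjusted p = 0.035) and Slc40a1 (0.30, adjusted p = 0.0452). Calls over all genes rose in that setting too, from 3821 with all libraries to 4168.

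**Figure D1:**
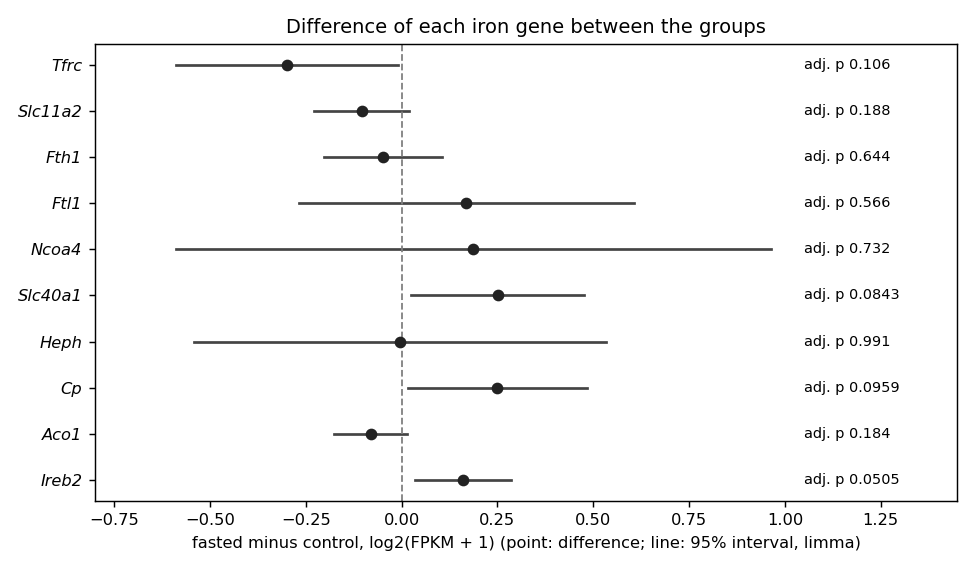
Difference between fasted and control aortae for each of the 10 iron genes on the log2(FPKM + 1) axis; points are differences, lines are 95% intervals from limma, and the adjusted p stands at the right. The differences run from -0.30 (Tfrc) to 0.25 (Slc40a1 and Cp), and none has an adjusted p under 0.05, the nearest being Ireb2 with 0.0505.

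Both uptake genes had lower means after the fast, and neither passed. Tfrc (ENSMUSG00000022797, chromosome 16, 32608920 to 32632794 on GRCm38) had a lowest, median and highest level of 1.80, 2.13 and 3.12 FPKM in controls and of 0.915, 1.62 and 2.23 FPKM in fasted aortae. Fasted replicate 3 was the lowest of the 12 libraries and control replicate 1 the highest, and 4 of the 6 fasted libraries lay below every control. The means were 2.24 ± 0.50 and 1.65 ± 0.481 FPKM (SD, n = 6 each), a difference of -0.30 ± 0.13 with an interval from -0.59 to -0.01 (limma adjusted p = 0.106). With white adipocyte marker levels as a covariate the Tfrc difference was -0.05 (adjusted p = 0.801), and with a pseudocount of 0.01 it was -0.47 (adjusted p = 0.112). In whole aortae, fewer cells of a type and less RNA per cell cannot be told apart.

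Of the 18 member transcripts 1 passed, against 16.2% of all transcripts (7.19% higher and 8.98% lower), and 6 had an unadjusted p under 0.05, against 29.2%. Of 9 isoform shares tested none passed, against 0.532% of all shares by limma, and none had an unadjusted p under 0.05, against 11.8%. Tfrc-202, the isoform without the elements shown above, had a lowest, median and highest level of 0.882, 1.07 and 1.38 FPKM in controls and of 0.345, 0.674 and 0.862 FPKM after the fast. Its 6 fasted values lay below all 6 controls. No overlap was seen in 17.0% of all genes tested, and the share among all transcripts was not computed. From a mean of 1.097 ± 0.203 to 0.622 ± 0.201 FPKM (SD, n = 6 each) Tfrc-202 fell by 0.37 on the log2(FPKM + 1) scale (limma adjusted p = 0.0237 over 20599 transcripts). Tfrc-201, which carries the 4 elements, was at 1.15 ± 0.602 and 1.03 ± 0.440 FPKM, with overlapping groups (-0.07, interval -0.49 to 0.36, adjusted p = 0.866). The call of Tfrc-202 was lost without control replicate 5 (-0.35, adjusted p = 0.0508) and with the adipocyte covariate (-0.30, adjusted p = 0.168). The share of Tfrc-202 in the gene was 51.2% ± 16.0 in controls and 39.4% ± 12.6 in fasted aortae. It spanned 30.1% to 76.3% and 20.02% to 51.4%, so the groups overlapped, and with the level filter dropped its share did not pass (adjusted p = 0.612). The authors' split of reads between these isoforms rests on estimates at about 1 FPKM each. Tfrc-202 ends at position 32623741 of chromosome 16, before the first element (from 32631219) and before the end of Tfrc-201 (32632794). The isoforms thus differ by more than the elements, and whether Tfrc-202 encodes the whole receptor was not examined.

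The endosomal iron transporter DMT1 is encoded by Slc11a2 (ENSMUSG00000023030, chromosome 15, 100387898 to 100425072). Its lowest, median and highest levels were 5.91, 6.94 and 7.35 FPKM in controls and 5.905, 6.25 and 6.85 FPKM in fasted aortae. All 6 fasted libraries lay below the control median, but within the control range except for 1. The difference was -0.10 ± 0.06, with an interval from -0.23 to 0.02 (limma adjusted p = 0.188), and -0.16 for Slc11a2-201 alone (adjusted p = 0.135 over transcripts). Slc11a2-201, which reaches further at its 3′ end, made up 76.2% ± 2.92 of the gene in controls and 72.3% ± 4.46 in fasted aortae, and Slc11a2-205 the rest (share test adjusted p = 0.563).

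**Figure D2:**
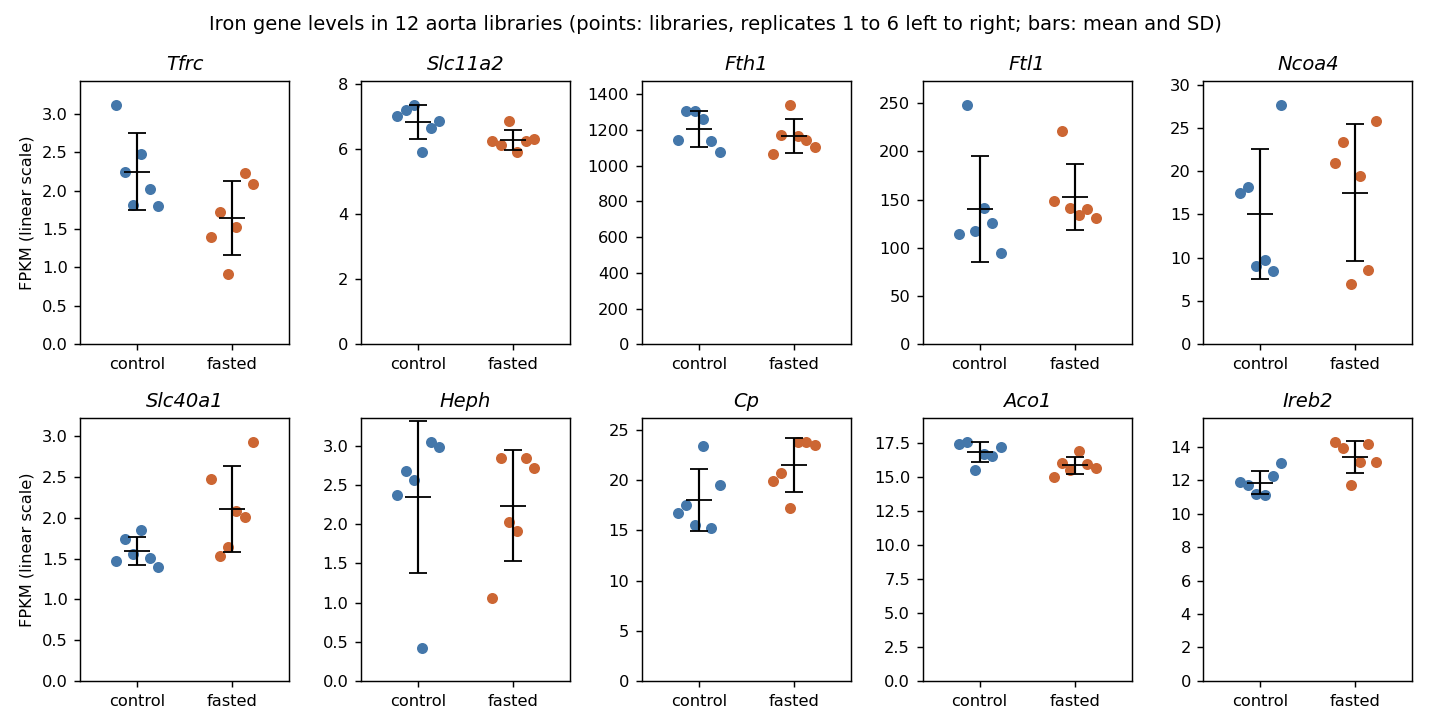
FPKM of the 10 iron genes in each library on linear axes that start at 0; points are libraries with replicates 1 to 6 from left to right, and bars are means with SD. The groups overlap in all 10 panels; Ncoa4 lies between 6.98 and 27.7 FPKM within both groups together, and 1 control library of Heph stands at 0.425 FPKM.

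Ferritin heavy chain RNA was the most abundant of the members and close to level between the groups. Fth1 (ENSMUSG00000024661, chromosome 19, 9980598 to 9985098), the subunit with ferroxidase activity, ranked 25 of 12063 genes by mean level. Its lowest, median and highest values were 1074.5, 1203 and 1309 FPKM in controls and 1064, 1154 and 1341 FPKM in fasted aortae. The lowest and the highest of the 12 libraries were both fasted. The means were 1206 ± 99.9 and 1165 ± 95.1 FPKM (SD, n = 6 each), a difference of -0.05 ± 0.07. Its interval ran from -0.20 to 0.11 (limma adjusted p = 0.644).

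Light chain RNA varied more between libraries than between groups. Ftl1 (ENSMUSG00000050708, chromosome 7, 45457944 to 45459884) had a lowest, median and highest level of 94.5, 121 and 248 FPKM in controls and of 131, 140.5 and 221 FPKM in fasted aortae. Replicate 2 of each group stood far above the other 5. The difference was 0.17 ± 0.20 (interval -0.27 to 0.61, limma adjusted p = 0.566), 0.35 without control replicate 2 (adjusted p = 0.0796), 0.057 without fasted replicate 2 (adjusted p = 0.86), 0.070 without control replicate 6 (adjusted p = 0.825) and 0.34 with the adipocyte covariate (adjusted p = 0.353). Ftl1-ps1 (chromosome 13), named as a pseudogene but typed as protein coding in GENCODE M21, is a near copy that can share reads with Ftl1. It was listed at 6.12 ± 1.21 and 7.83 ± 0.607 FPKM. It was higher in fasted aortae (0.32, adjusted p = 0.0254), and the sources used here do not say how reads were split between the copies, so the Ftl1 level is uncertain; the sum of both differed by 0.18 (adjusted p = 0.53).

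The ratio of Fth1 to Ftl1, both per length, ranged from 5.28 to 11.4 in controls with a median of 9.51. In fasted aortae it ranged from 5.31 to 9.49 with a median of 8.31, so that all 6 fasted libraries lay below the control median and none below the control range. The log2 ratio differed by -0.22 (two-sided exact permutation test over 924 arrangements, p = 0.314, the smallest possible being 0.00216). Without control replicate 2, whose ratio was 5.28, the difference was -0.37 (exact permutation p = 0.0195), and without fasted replicate 2, whose ratio was 5.31, it was -0.11 (exact permutation p = 0.621).

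Ncoa4, the cargo receptor that delivers ferritin to the lysosome (ENSMUSG00000056234, chromosome 14, 32159865 to 32179855), was the most variable member. Its lowest, median and highest levels were 8.48, 13.6 and 27.7 FPKM in controls and 6.98, 20.2 and 25.8 FPKM in fasted aortae. Control replicates 3, 4 and 5 and fasted replicates 3 and 5 were all under 10 FPKM, and the other 7 libraries were all above 17 FPKM. The difference of 0.19 ± 0.36 had an interval from -0.59 to 0.96 (limma adjusted p = 0.732), the widest of the members. Its value ranged from 0.052 without fasted replicate 6 to 0.40 without fasted replicate 3, and was 0.75 for Ncoa4-201 alone (adjusted p = 0.539 over transcripts) and 0.44 with the adipocyte covariate (adjusted p = 0.512). The same 5 libraries had 0 FPKM of the short isoform Ncoa4-207 (791 bases) and the 5 highest shares of Ncoa4-202 and Ncoa4-208. In them Ncoa4-202 made up 31.9% to 42.4% of the gene, against at most 5.80% in the other 7. The part of these isoform estimates in the spread of the Ncoa4 total was not tested.

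**Figure D3:**
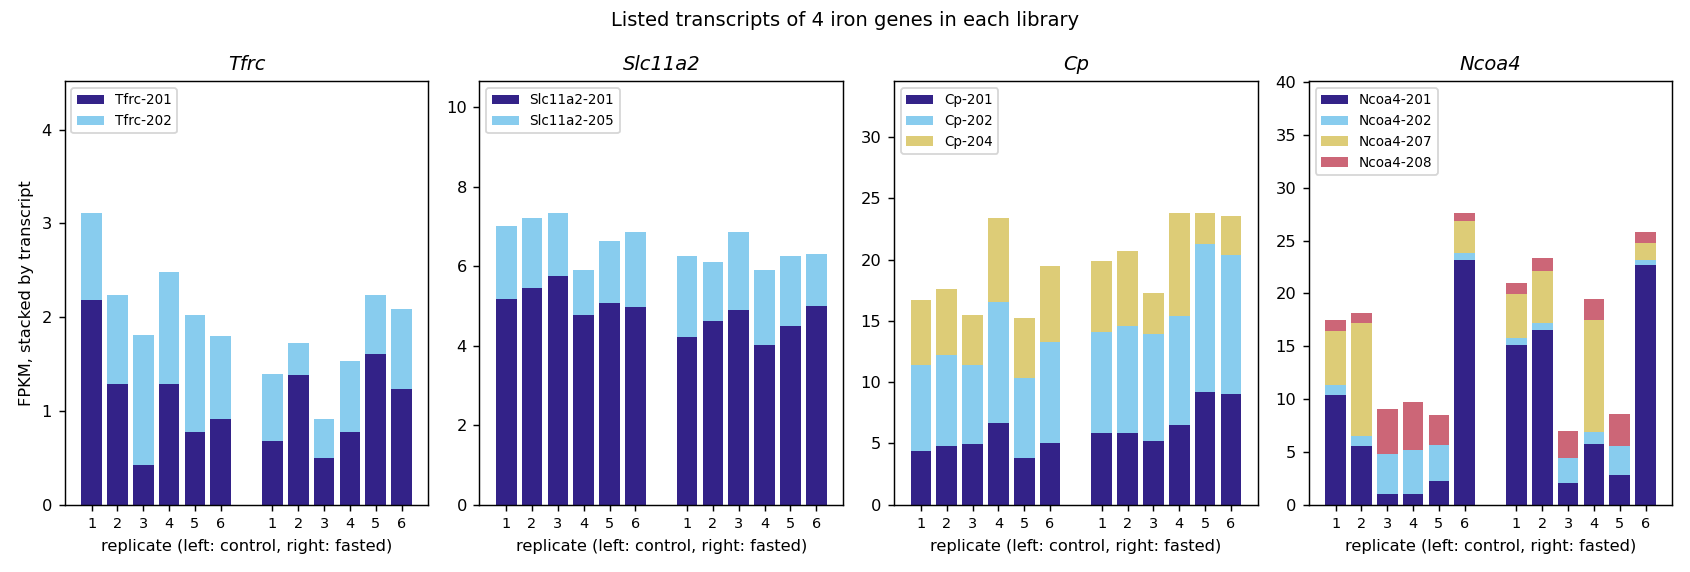
FPKM of the listed transcripts of Tfrc, Slc11a2, Cp and Ncoa4, stacked for each library, control replicates at the left and fasted at the right of each panel. Tfrc-202 is shorter in every fasted bar than in any control bar, while the make-up of Ncoa4 changes from library to library in both groups.

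Among the export genes, ferroportin and ceruloplasmin had higher means after the fast and hephaestin did not, and none passed. Ferroportin, encoded by Slc40a1 (ENSMUSG00000025993, chromosome 1, 45908068 to 45926523), had a lowest, median and highest level of 1.40, 1.53 and 1.85 FPKM in controls and of 1.53, 2.04 and 2.93 FPKM in fasted aortae. Fasted replicates 1, 4, 5 and 6 lay above every control. The means were 1.59 ± 0.171 and 2.11 ± 0.526 FPKM, 1.33 times as high in fasted aortae, with a difference of 0.25 ± 0.10 (interval 0.03 to 0.48, limma adjusted p = 0.0843). It passed without fasted replicate 2 (0.31, adjusted p = 0.039), with macrophage markers as a covariate (0.26, adjusted p = 0.0331) and with white adipocyte markers as a covariate (0.38, adjusted p = 0.0388). Slc40a1 carries a 5′ element of the kind shown above.

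Ceruloplasmin, a copper ferroxidase of plasma that some cells also hold at their surface, is encoded by Cp (ENSMUSG00000003617, chromosome 3, 19957054 to 20009145). It had a lowest, median and highest level of 15.3, 17.2 and 23.4 FPKM in controls and of 17.2, 22.1 and 23.8 FPKM in fasted aortae. All 6 fasted libraries exceeded the control median, and 3 exceeded all controls. The difference was 0.25 ± 0.11 (interval 0.02 to 0.48, limma adjusted p = 0.0959). Without control replicate 4, the highest control, Cp passed (0.33, adjusted p = 0.0205), as it did with the macrophage covariate (0.26, adjusted p = 0.0243). Its isoforms Cp-201 and Cp-202 differed by 0.41 (adjusted p = 0.0854) and 0.31 (adjusted p = 0.0947), and Cp-204 by -0.21 (adjusted p = 0.596). Cp-201 passed with the adipocyte covariate (0.59, adjusted p = 0.0467), the macrophage covariate (0.42, adjusted p = 0.0213), and without control replicate 4 (adjusted p = 0.0456) or fasted replicate 3 (adjusted p = 0.0463), and Cp-202 without control replicate 4 (adjusted p = 0.0355). Cp-204 made up 30.4% ± 2.11 of the gene in controls and 22.9% ± 9.90 in fasted aortae, where fasted replicates 3, 5 and 6 had 10.9% to 19.3% (share test adjusted p = 0.50).

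Heph encodes hephaestin, the ferroxidase bound to the cell membrane (ENSMUSG00000031209, chromosome X, 96455359 to 96574485). Its lowest, median and highest levels were 0.425, 2.63 and 3.06 FPKM in controls and 1.06, 2.37 and 2.85 FPKM in fasted aortae. Control replicate 4 was far below the other 5 controls, and the fasted values lay within the control range. The difference was -0.0044 ± 0.25 (interval -0.54 to 0.53, limma adjusted p = 0.991), and -0.24 without control replicate 4 (adjusted p = 0.274). Its isoform Heph-203 was at 0.12 FPKM in control replicate 4 and 0.24 FPKM in fasted replicate 1, and at 1.12 to 2.41 FPKM in the other 10 libraries.

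Of the genes of the iron regulatory proteins, Aco1 had the lower mean after the fast and Ireb2 the higher. Aco1 encodes iron regulatory protein 1, which is the cytosolic aconitase when it holds an iron-sulfur cluster (ENSMUSG00000028405, chromosome 4, 40143081 to 40198338). Its lowest, median and highest levels were 15.5, 16.9 and 17.6 FPKM in controls and 15.03, 15.8 and 16.9 FPKM in fasted aortae. All 6 fasted libraries lay below the control median, and the groups overlapped (-0.08 ± 0.04, interval -0.18 to 0.02, limma adjusted p = 0.184).

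Ireb2 encodes iron regulatory protein 2, which is degraded when iron is plentiful (ENSMUSG00000032293, chromosome 9, 54863789 to 54912530). It had a lowest, median and highest level of 11.1, 11.8 and 13.02 FPKM in controls and of 11.7, 13.5 and 14.3 FPKM in fasted aortae. All fasted libraries but replicate 3 lay above every control. The means were 11.9 ± 0.715 and 13.4 ± 0.977 FPKM (SD, n = 6 each), a difference of 0.16 ± 0.06 with an interval from 0.04 to 0.29. The adjusted p of 0.0505 lay at the threshold: Ireb2 was called in 6 of 21 alternatives, with adjusted p from 0.00979 to 0.103 over all of them. With median-of-ratios factors it passed (0.19, adjusted p = 0.0244), and without control replicate 6 as well (0.19, adjusted p = 0.0339).

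By mean level over the 12 libraries the order was Fth1 (1185.5 FPKM), Ftl1 (146 FPKM), Cp (19.8 FPKM), Aco1 (16.3 FPKM), Ncoa4 (16.3 FPKM), Ireb2 (12.6 FPKM), Slc11a2 (6.56 FPKM), Heph (2.29 FPKM), Tfrc (1.95 FPKM) and Slc40a1 (1.85 FPKM). The steps from Fth1 to Ftl1, Ftl1 to Cp, Ireb2 to Slc11a2 and Slc11a2 to Heph held in all 12 libraries with no overlap of ranges. The neighbours Cp and Aco1, Aco1 and Ncoa4, Ncoa4 and Ireb2, Heph and Tfrc, and Tfrc and Slc40a1 overlapped and kept this order in 8, 5, 7, 9 and 8 of 12 libraries. Ferritin RNA thus stood far above that of the receptor and the exporter in both groups.

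Among other genes of iron, heme and iron-sulfur handling, 10 rose and 10 fell of 74 tested, 27.0% against the 31.7% of all genes. The median of these 74 differences was -0.06, and -0.02 over all genes. The iron chaperone genes gave the smallest p-values. Pcbp2, whose protein hands iron from the importer to other proteins, rose from 69.8 ± 2.44 to 98.5 ± 4.83 FPKM (0.49 ± 0.04, limma adjusted p = 5.14e-06). Pcbp1, whose protein loads iron into ferritin, fell from 76.4 ± 3.07 to 60.6 ± 2.58 FPKM (-0.33 ± 0.04, adjusted p = 9.85e-05). The groups did not overlap in either gene, which holds for 17.0% of all genes. Fbxl5, which marks iron regulatory protein 2 for degradation when iron is plentiful, rose from 12.7 ± 0.862 to 16.5 ± 1.96 FPKM with overlapping groups (0.35, adjusted p = 0.00425), but taken by its main transcript only it differed by -0.57 (adjusted p = 0.36). Glrx3 did not pass (-0.13, adjusted p = 0.117), so that 2 of 7 chaperone and sensor genes rose and 1 fell, 42.9% called against 31.7% of all genes.

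**Figure D4:**
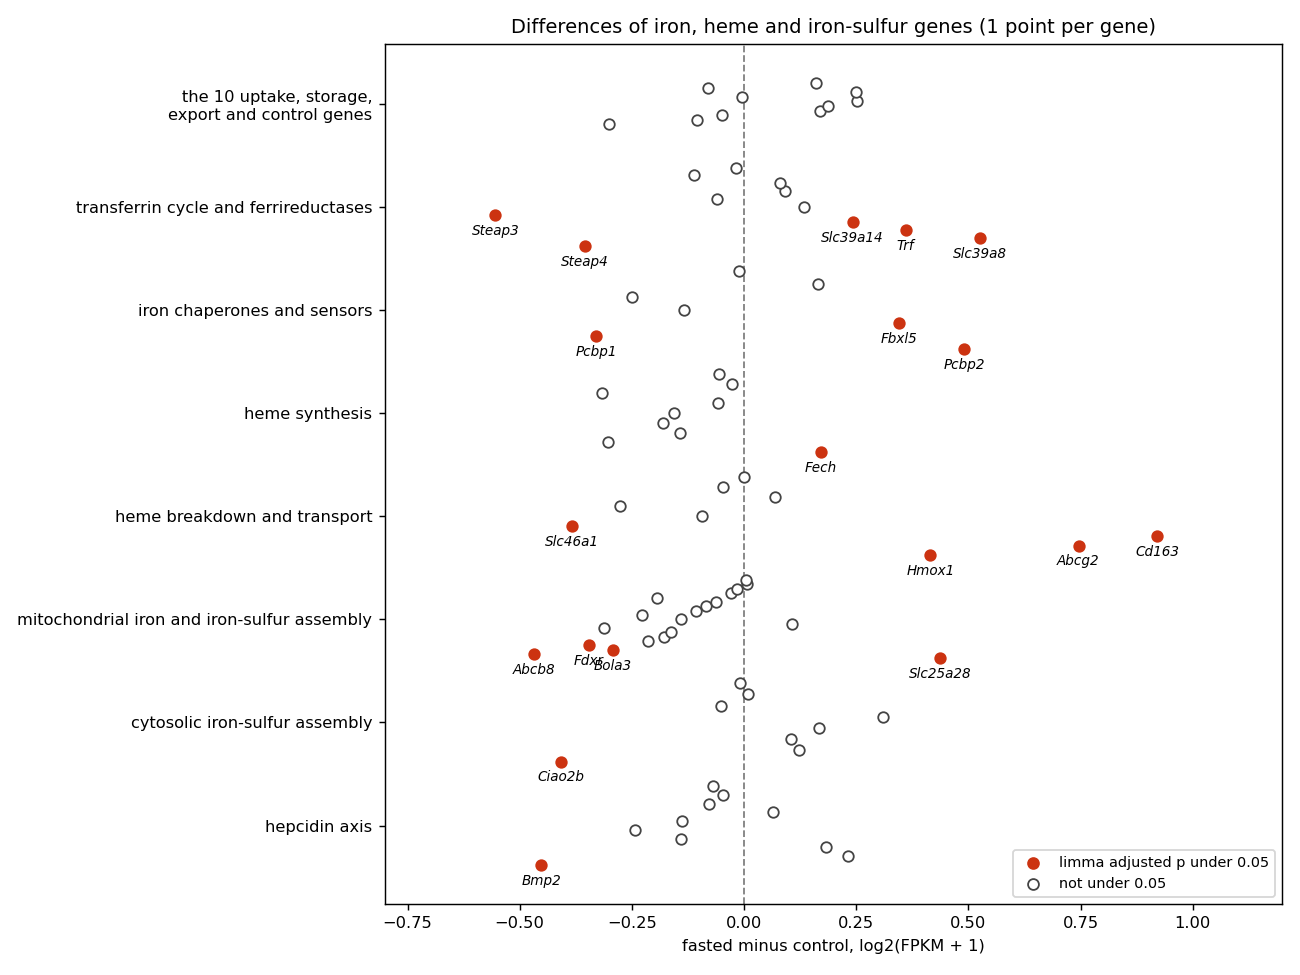
Difference between fasted and control aortae on the log2(FPKM + 1) axis for the 10 members, top row, and for 7 lists of other iron genes; each point is a gene (1 called mitochondrial gene is not drawn), and filled points with names had a limma adjusted p under 0.05. The members lie between -0.30 and 0.25 with no filled point, while the filled points of the other lists run from -0.55 (Steap3) to 0.92 (Cd163).

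Of 11 genes of the transferrin cycle and of ferrireductases, 3 rose and 2 fell, 45.5% called against 31.7% of all genes. Trf, transferrin itself, rose from 9.88 ± 0.988 to 13.1 ± 2.53 FPKM (0.36, limma adjusted p = 0.0242). The zinc and iron importers Slc39a8 (0.873 ± 0.259 to 1.74 ± 0.677 FPKM, adjusted p = 0.0175) and Slc39a14 (18.9 ± 1.41 to 22.6 ± 2.47 FPKM, adjusted p = 0.0251) rose as well. The metalloreductase genes Steap4 (10.6 ± 1.04 to 8.07 ± 1.08 FPKM, adjusted p = 0.0071) and Steap3 (9.04 ± 1.46 to 6.04 ± 1.81 FPKM, adjusted p = 0.0458) fell. The groups overlapped in all 5. Trf lost its call without control replicate 1 (0.33, adjusted p = 0.0528), control replicate 5 (0.34, adjusted p = 0.0511) or fasted replicate 4 (0.31, adjusted p = 0.0528). Slc39a14 lost it without control replicate 4 (0.20, adjusted p = 0.0512), fasted replicate 1 (0.21, adjusted p = 0.0543) or fasted replicate 2 (0.20, adjusted p = 0.0556). Steap3 lost it without any of 7 libraries, control replicates 2, 3, 5 and 6 and fasted replicates 2, 5 and 6 (adjusted p 0.053 to 0.0897), and with the adipocyte covariate (-0.56, adjusted p = 0.131), under which Slc39a14 was not called either (0.22, adjusted p = 0.125). Steap3 was also not called with pseudocounts of 0.1 (adjusted p = 0.0549) and 0.01 (adjusted p = 0.0568) or with the macrophage covariate (adjusted p = 0.0533). With the most abundant transcript alone, Trf (0.28, adjusted p = 0.196) and Slc39a8 (0.22, adjusted p = 0.273) were not called.

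Genes of heme breakdown and transport held 3 that rose and 1 that fell of 9, 44.4% called against 31.7% of all genes. Hmox1, the inducible heme oxygenase that frees iron from heme, rose from 8.19 ± 0.793 to 11.3 ± 1.15 FPKM without overlap (0.42 ± 0.08, limma adjusted p = 0.00122). Cd163, the macrophage receptor for haemoglobin bound to haptoglobin, rose from 4.38 ± 0.664 to 9.76 ± 3.40 FPKM, with fasted replicate 3 at 3.40 FPKM below all controls (0.92, adjusted p = 0.00942). Abcg2, an exporter that carries porphyrins among other substrates, rose from 2.90 ± 0.698 to 5.61 ± 1.44 FPKM (adjusted p = 0.00441). Slc46a1, a folate and heme carrier, fell from 1.104 ± 0.373 to 0.593 ± 0.148 FPKM (adjusted p = 0.0399), a call that was lost without any of 9 libraries, control replicates 1, 2, 3, 5 and 6 and fasted replicates 1, 2, 4 and 5 (adjusted p 0.0558 to 0.0823). The Slc46a1 call was also lost with the adipocyte covariate (-0.41, adjusted p = 0.101), with pseudocounts of 0.1 (-0.73, adjusted p = 0.0697) and 0.01 (-0.81, adjusted p = 0.0831) and with its most abundant transcript only (adjusted p = 0.0506). Of the 10 macrophage markers Adgre1 (-0.46, adjusted p = 0.029) and Cx3cr1 (-0.61, adjusted p = 0.0263) were lower, and the other 8 did not pass, with differences from -0.26 (Fcgr1) to 0.40 (Cd68). With macrophage marker levels as a covariate Cd163 (0.94, adjusted p = 0.00163), Hmox1 (0.42, adjusted p = 7.03e-04) and Abcg2 (0.75, adjusted p = 0.00156) were called as before. This covariate is the mean of all 10 markers, which went in both directions. It moved the differences little from those of the main fit (Cd163 0.92, Hmox1 0.42 and Abcg2 0.75). The part of macrophage content in these calls was not tested.

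In mitochondria, 1 gene of iron import and iron-sulfur assembly rose and 4 fell of 20, 25.0% called against 31.7% of all genes. Of all genes tested, 13.8% were higher and 17.9% lower. Slc25a28, which encodes the iron importer mitoferrin-2, rose from 10.8 ± 0.578 to 15.1 ± 2.43 FPKM without overlap (0.44 ± 0.08, limma adjusted p = 0.00177). Abcb8 (-0.47, adjusted p = 0.00442, groups apart), Bola3 (-0.29, adjusted p = 0.0118) and Fdxr (-0.35, adjusted p = 0.0178) were among those that fell. Abcb8 was not called with its most abundant transcript alone (-0.50, adjusted p = 0.192).

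Of 9 heme synthesis genes, Fech, the enzyme that inserts iron into protoporphyrin, rose from 18.4 ± 0.924 to 20.8 ± 0.877 FPKM (0.17, limma adjusted p = 0.0126) and none fell; Uros (-0.30, adjusted p = 0.115), Ppox (-0.14, adjusted p = 0.398) and Alas1 (-0.18, adjusted p = 0.538) did not pass, though Uros did without control replicate 4 (-0.39, adjusted p = 0.0363). Of 8 genes of cytosolic iron-sulfur assembly, Ciao2b fell from 25.6 ± 2.83 to 19.2 ± 3.53 FPKM (-0.41, adjusted p = 0.0155) and none rose; Ciao1 (0.12, adjusted p = 0.073), Nubp2 (0.10, adjusted p = 0.282) and Mms19 (0.17, adjusted p = 0.291) did not pass, though Ciao1 did without fasted replicate 3 (0.14, adjusted p = 0.029) and after median-of-ratios scaling (0.15, adjusted p = 0.0276). Of 10 tested genes of the hepcidin axis, the ligand gene Bmp2 fell from 3.60 ± 0.875 to 2.33 ± 0.386 FPKM (-0.45, adjusted p = 0.0138) and none rose; Bmpr2 (0.23, adjusted p = 0.0592), Smad4 (0.18, adjusted p = 0.0881) and Bmpr1a (-0.14, adjusted p = 0.0906) did not pass. Without fasted replicate 3 Bmpr2 (0.31, adjusted p = 0.00104) and Smad4 (0.24, adjusted p = 0.00668) passed, as both did after median-of-ratios scaling (adjusted p = 0.0342 and 0.0485). Bmpr2 also passed with the adipocyte (0.34, adjusted p = 0.0279) and macrophage covariates (0.24, adjusted p = 0.0413), and Bmpr1a with the latter (-0.14, adjusted p = 0.0442). With the adipocyte covariate Ciao2b (-0.32, adjusted p = 0.12) and Bmp2 (-0.46, adjusted p = 0.0538) were not called. Hamp, which encodes hepcidin, the hormone that removes ferroportin from the cell surface, was under the filter for the test and listed at 0 to 0.423 FPKM in controls and 0 to 2.88 FPKM in fasted aortae.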

How the data were processed

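Poly(A)-selected, strand-specific libraries of aortae freed of fat were read from both ends, per the labels' protocols. FastQC, cutadapt, HISAT2, StringTie and the GRCm38 build are named per the submitters' processing notes; their versions and settings, and which annotation was used, are not stated in those notes. FPKM per transcript, 1 column per library, is what the authors deposited. No listed transcript averages under 0.5 FPKM in both groups. Depth is unknown, so no counting interval was computed.

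Transcripts were matched to GENCODE M21 on GRCm38 by identifier: 21493 with the same version, 1162 with another (Fth1-201 among them) and 44 not at all. FPKM was summed per gene. The two-sided test was limma 3.58.1 in R 4.3.3 (mean trend, log2(FPKM + 1), Benjamini-Hochberg over all genes) on genes that reach 0.5 FPKM in 6 or more libraries, and transcripts likewise. For isoform shares limma used the arcsine square root, in genes never under 1 FPKM, adjusted over all shares. Of the members, 9 shares were tested. The tests were checked on simulated data. There, changes were planted only in genes and transcripts above the mean levels of Tfrc, Slc40a1 and Tfrc-202. The check thus does not cover changes at such low levels. Likeness between genes was Pearson's r of deviations from group means.

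The members, the lists of other iron genes and the markers were chosen with earlier results of these data known. Named were all members and their transcripts, up to 4 genes per list with the smallest p and the 3 genes most like a member; Steap3 and Fdxr were added after their values were seen. The values of 1 gene that the rule names are not reported here. Alternatives were pseudocounts of 0.1 and 0.01, no filter, a mean of at least 1 FPKM, median-of-ratios factors, a replicate block, marker covariates, the most abundant transcript alone and leaving out each library.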

Additional observations from a re-analysis of the deposited data

Results flagged for a closer look

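In 20 groups of 6 libraries (10 iron genes in 2 groups), 3 held a library whose distance from its nearest neighbour was large against the range of the group; chance gives about 1 in 20. Ftl1 was at 248 FPKM in control replicate 2, with the next control at 142 FPKM and the lowest at 94.5 FPKM. Ftl1 was at 221 FPKM in fasted replicate 2, with the next fasted library at 148 FPKM and the lowest at 131 FPKM. Heph was at 0.425 FPKM in control replicate 4, with the next control at 2.37 FPKM and the highest at 3.06 FPKM.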

How the results depend on the processing

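The count of iron genes called, 0 of 10, became 1 with a pseudocount of 0.1 or 0.01, with a mean filter of 1 FPKM or with median-of-ratios factors (Ireb2 each time), 1 with the replicate block (Cp), 1 with the adipocyte covariate (Slc40a1) and 2 with the macrophage covariate (Cp and Slc40a1); it was 0 to 3 when 1 library was left out. The 1 member transcript called became 0 with the mean filter, which removes Tfrc-202, and 0 with the replicate block, 2 with median-of-ratios factors or the macrophage covariate, and 0 to 3 when 1 library was left out. The Fth1 to Ftl1 difference was -0.37 to -0.11 when 1 library was left out. Isoform shares of members stayed at 0 calls throughout, and counts of all genes (2922 to 4168, against 3821) and of the other iron genes (15 to 24, against 20) stayed within 1.5 times. The sum with Ftl1-ps1 and the shares without a level filter were chosen after seeing the data.

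Differences near 0 changed sign, and so did the larger ones of Ncoa4-207 (0.28), Ncoa4-208 (-0.17) and Fbxl5 (0.35). Heph gave 0.063 and 0.084 with pseudocounts of 0.1 and 0.01, 0.013 with median-of-ratios factors, 0.08 with the adipocyte covariate, and -0.24 to 0.12 when 1 library was left out. Heph-203 gave 0.011 and 0.059 with those pseudocounts, 0.037 with the adipocyte covariate and -0.26 to 0.15 without 1 library. With the adipocyte covariate Tfrc-201 gave 0.19, Heph-202 0.029 and Slc11a2-205 -0.078. Without 1 library Tfrc-201 ranged from -0.18 to 0.055, Heph-202 from -0.12 to 0.034, Slc11a2-205 from -0.003 to 0.10, Ncoa4-207 from -0.10 to 0.72 and Ncoa4-208 from -0.32 to 0.0058. The most abundant transcript alone gave -0.57 for Fbxl5, a gene called as higher in the main fit (limma adjusted p = 0.00425). None of these reversed values was past the threshold, and the cause was not tested.

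Replicate numbers are shared by the groups, but deviations of same-numbered libraries correlated at -0.0063 to 0.0845, so the numbers were not taken as pairs; with the replicate block 3652 genes were called against 3821, Tfrc-202 was not called (adjusted p = 0.0763) and Bmpr2 was (adjusted p = 0.0496). Unknown depth limits all values near 1 FPKM.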

Other observations

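The genes whose deviations from the group means over the 12 libraries were most like those of a member, among 11205 others with a mean of at least 1 FPKM, are given as a description; the points share libraries, and the highest r lay between 0.859 (Heph) and 0.949 (Fth1). Tfrc was most like Fads2 (r = 0.909), Cemip2 (r = 0.895) and Efcab2 (r = 0.882). Slc40a1 was most like Cd200 (r = 0.913), Pik3ip1 (r = 0.868) and Mtfr1 (r = 0.841). Fth1 was most like Rbm5 (r = 0.949), Tspan31 (r = 0.930) and mt-Co1 (r = 0.927). Ireb2 was most like Eif2ak1 (r = 0.933), which encodes a kinase that senses heme, Atad2b (r = 0.931) and Anapc1 (r = 0.925). Ncoa4 was most like Dicer1 (r = 0.924), Ankrd45 (r = 0.910) and Arhgap17 (r = 0.905). Ftl1 was most like Ctbp2 (r = 0.933), Nxt1 (r = 0.871) and Sfrp4 (r = 0.859). Cp was most like Parp14 (r = 0.941), Zfp971 (r = 0.921) and Mapk8 (r = 0.920). Slc11a2 was most like Tcf25 (r = 0.893), Gm20219 (r = 0.887) and Def8 (r = 0.885). Aco1 was most like Spast (r = 0.887), Zfp27 (r = 0.882) and Me1 (r = 0.880). Heph was most like Dnmt3a (r = 0.859), Sft2d2 (r = 0.857) and Zswim9 (r = 0.854). No member was among the 3 genes most like another member, a ranking that takes only the highest positive r. Between members r ran from -0.840 (Fth1 and Ireb2) and -0.745 (Slc11a2 and Cp) to 0.584 (Slc11a2 and Heph).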
